A study of Mus musculus with 8 samples.

Results

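The Shc genes encode a family of adaptor proteins that carry signals from activated receptors into the cell. The family was taken as every probe set annotated with Shc1, Shc2, Shc3 or Shc4 alone, which gave 4 genes of 20352 and 51 probe sets of 241576. A probe set is a short group of probes that reads 1 stretch of a transcript, and there were 10 for Shc1, 15 for Shc2, 12 for Shc3 and 14 for Shc4. The gene value used below is the mean log2 value of a gene's probe sets. The study profiled the whole cerebellum of 28-day-old mice on Affymetrix Mouse Gene 1.0 ST arrays, 1 array per animal. One group held 4 wild-type mice and the other 4 mice with the genotype label Cic-L-null, and all 8 came from a mixed background of the outbred Swiss Webster (CD-1) stock. Capicua (Cic) is a transcriptional repressor, and Cic-L is the name of its long isoform. The labels do not say how the allele was made or in which cells it acts, and the study asked how cerebellar transcription changes without it.

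An Shc protein binds the phosphorylated tyrosines of an activated receptor through a phosphotyrosine-binding domain at its amino-terminal side and an SH2 domain at its carboxy-terminal end. The receptor, or a Src-type kinase, then phosphorylates tyrosines in the region between them, where the adaptor Grb2 docks. Grb2 brings the exchange factor Sos, which switches on Ras and the ERK cascade. Capicua represses genes downstream of that cascade, and ERK signalling relieves the repression. Shc1 is widely expressed and prominent in dividing precursors, whereas Shc2 and Shc3 are known mainly from neurons, and Shc4 was described in brain, muscle and melanoma.

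Of the members whose annotated start could be searched, Shc1, Shc2 and Shc4, only Shc4 carries the known Capicua sequence there. Its start is shown here. The table of RefSeq promoter windows (assembly GRCm38.p6) holds 250 bases before and 50 bases from each start on. It was searched on both strands for the 4 forms of the Capicua octamer, TGAATGAA, TGAATGGA, TCAATGAA and TCAATGGA. These forms differ from each other at 1 or 2 letters and were counted at overlapping places too. Shc4 was matched by 1 window with 2 octamers, Shc1 by 2 windows and Shc2 by 1 window with 0 octamers each, and Shc3 is not in the table. Of all 32851 windows, 3.84% held at least 1 octamer and 0.183% held at least 2. A match describes these letters and shows no binding, and its absence from a window says nothing about the factor. The sequences run 5′ to 3′ on the strand of Shc4, the minus strand, and the capitals mark the octamers, here as the reverse complements TCCATTCA and TTCATTCA. The first covers chr2:125724149-125724398, all before the start, and its match begins 25 bases before the start base. The other is a stretch of 30 bases at chr2:125724101-125724130, whose match begins 29 bases after the start base.
Shc4 before the start: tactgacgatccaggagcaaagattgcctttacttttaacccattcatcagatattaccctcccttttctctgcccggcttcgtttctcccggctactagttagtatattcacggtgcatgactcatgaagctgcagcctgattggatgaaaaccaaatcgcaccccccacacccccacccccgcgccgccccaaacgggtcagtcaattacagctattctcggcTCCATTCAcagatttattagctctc
Shc4 site after the start: attcggcaaagTTCATTCAtaaaaatttca

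The tissue and the labels were checked first. Cic itself had a mean gene value of 8.78 ± 0.28 (SD, n = 4) in wild-type cerebellum, against 7.54 ± 0.061 (SD, n = 4) in the mutants, with no overlap. Defining cerebellar transcripts were bright in both groups, with means of 12.4 and 12.4 for the granule cell receptor gene Gabra6 and of 11.8 and 11.7 for the glial glutamate transporter gene Slc1a3. Values below 6.21, the level that 95% of olfactory receptor genes stayed under, are called dim. Wild-type replicate 1 is the only array whose label names a Trizol extraction, and it had the highest wild-type value of each of the 4 Shc genes. Cic-L-null replicate 1 had the highest mutant value of each. Over all probe sets, each of these arrays also had the highest median log2 value of its group. Wild-type replicate 1 stood at 7.88 (others 7.82 to 7.84) and Cic-L-null replicate 1 at 7.87 (others 7.85 to 7.86). Signal of Y-linked genes was high in 2 wild-type and 3 mutant arrays, and with it as a covariate the differences given below were 0.54 for Shc3 and 0.38 for Shc4.

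Shc3 and Shc4 were higher in every Cic-L-null cerebellum than in every wild-type one, whereas Shc1 and Shc2 had overlapping groups. None of the 4 passed over all genes. The test was limma's moderated test with Benjamini-Hochberg adjustment over 20352 genes, in which 0.138% of genes passed at an adjusted p under 0.05. Groups without overlap were found for 5.94% of all genes, in either direction, and 9.26% had an unadjusted p under 0.05. Shc2, Shc3 and Shc4 were among the latter. In whole tissue, fewer cells of a type and less RNA per cell cannot be told apart. The p-values set a group difference against the variation between these animals.

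**Figure D1:**
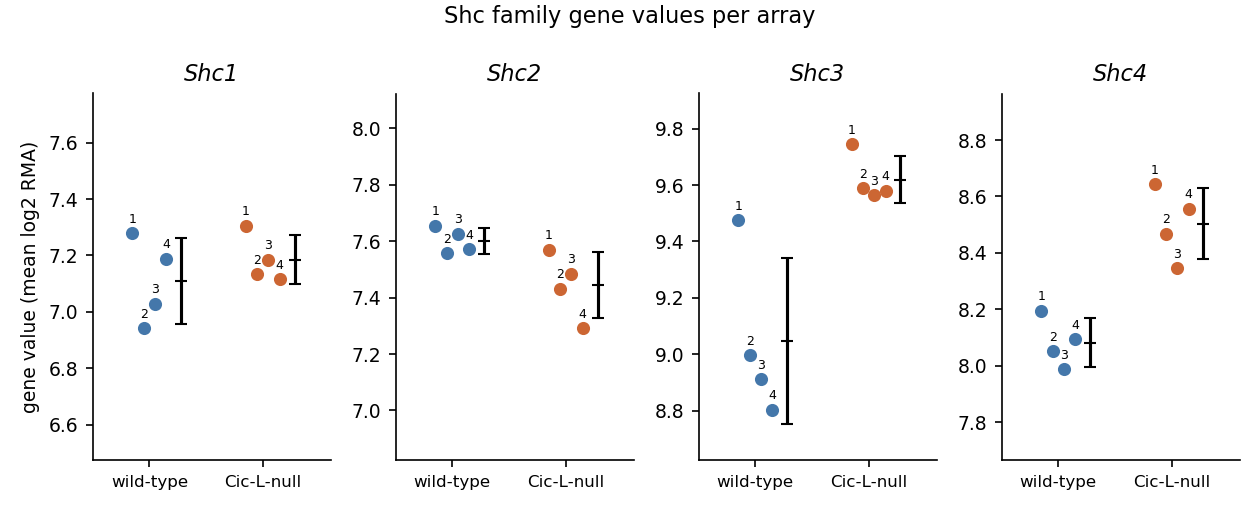
Gene value (mean log2 value of the probe sets, vertical axis, all panels spanning the same number of log2 units) of each Shc gene in the 4 wild-type (blue) and 4 Cic-L-null (orange) arrays; small digits are replicate numbers, and black bars give the mean and SD. All mutant points of Shc3 and Shc4 lie above all wild-type points, with wild-type replicate 1 of Shc3 at 9.47 nearest to the mutants.

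Shc4, also known as ShcD or RaLP, had the smallest p of the family. Its gene values were 8.19, 8.05, 7.99 and 8.09 in wild-type replicates 1 to 4 and 8.64, 8.47, 8.35 and 8.56 in Cic-L-null replicates 1 to 4. The lowest mutant lay 0.15 above the highest wild-type array. The means of 8.08 ± 0.087 (SD, n = 4) and 8.50 ± 0.13 (SD, n = 4) differed by 0.42 log2 units (SE 0.076), or 1.34-fold with a 95% interval from 1.19 to 1.51. Its limma adjusted p was 0.0753, and the exact two-sided permutation test gave p = 0.0286, the smallest that 4 against 4 allows. Shc4 ranked 57th of 20352 genes by limma p and 98th in size among the upward differences. It passed among genes above the dim limit alone (adjusted p = 0.043) and with quantile normalisation of the gene values, a trended and robust variance or array weights (adjusted p from 0.0195 to 0.0463). Over all 18 alternatives the limma adjusted p ran from 0.0195 to 0.251 and the difference from 0.38 to 0.50.

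Of the 14 probe sets of Shc4, 13 had a higher mutant mean, with a median difference of 0.32, where 51.6% of all probe sets had a difference above 0 and the median of all was 0.0068. The groups of 3 did not overlap, all higher, against 2.39% of all probe sets. Probe set 10487151 read 10.27, 9.98, 10.25 and 10.06 in wild-type and 10.63, 10.67, 10.65 and 10.51 in the mutants, a difference of 0.47 (SE 0.097). Probe set 10487150 read 8.71, 7.97, 8.14 and 8.15 against 8.84, 9.26, 8.96 and 9.34, a difference of 0.86 (SE 0.18). The lowest mutant lay above the highest wild-type array in both. Probe set 10487145, the remaining one without overlap, differed by 0.40 (SE 0.11).

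Probe set 10487148 of Shc4 was dim in wild-type, so its difference is not an exact size. It read 6.29, 5.42, 5.44 and 5.75 in wild-type and 7.89, 6.26, 7.01 and 7.38 in the mutants, a measured difference of 1.41 (SE 0.35). Cic-L-null replicate 2 and wild-type replicate 1 overlapped there. The Shc4 gene value averages over this probe set too, so its difference of 0.42, or 1.34-fold, is not an exact size either. The middle of the 14 probe set differences was 0.32, whereas medians in place of means gave the gene a difference of 0.50. Probe set 10487152 was also dim in wild-type (mean 5.83, mutants 6.36) and differed by 0.53 (SE 0.49) with overlapping groups. Leaving out probe sets that were dim on average dropped 10487152 and gave 0.41. It kept 10487148, so the gene difference without 10487148 was not tested. The settings in which Shc4 passed used gene values that hold both of these probe sets. The sole Shc4 probe set with a lower mutant mean, 10487142, differed by -0.061 (SE 0.22), and 10487141 differed by 0.091 (SE 0.17). By names in GRCm38.p6, the span of Shc4 overlaps that of 2 other genes, Eid1 and Gm35231. The 2 probe sets annotated with both Eid1 and Shc4 were not used. They differed by -0.17 (SE 0.096) and -0.088 (SE 0.20), opposite in sign to the gene value of Shc4. The gene value of Eid1, from the 2 probe sets annotated with Eid1 alone, differed by -0.082 (SE 0.091). Which of these transcripts the shared probe sets read was not tested. The files do not say which exon each probe set covers.

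Shc3, also known as ShcC, N-Shc or Rai, had the larger difference but also the widest wild-type group. Its gene values were 9.47, 8.997, 8.91 and 8.80 in wild-type replicates 1 to 4 and 9.74, 9.59, 9.56 and 9.58 in Cic-L-null replicates 1 to 4. The mutants lay within 0.18 log2 units of each other and the wild-type arrays within 0.67, since wild-type replicate 1 stood 0.48 above the next one. The means of 9.05 ± 0.30 (SD, n = 4) and 9.62 ± 0.084 (SD, n = 4) differed by 0.57 log2 units (SE 0.13), or 1.49-fold with a 95% interval from 1.22 to 1.81. The limma adjusted p was 0.144, and the exact two-sided permutation test gave p = 0.0286, again the smallest possible. In size, Y-linked genes stood 1st and 2nd among the upward differences of 20352 genes, and the Shc3 difference 27th. By limma p Shc3 ranked 140th. Without wild-type replicate 1 the difference was 0.71 (SE 0.071) and passed with limma (adjusted p = 0.0286), as it did with array weights (0.65, adjusted p = 0.0316). The part of the differing extraction label in that array's value was not tested, and over all 18 alternatives the limma adjusted p of Shc3 ran from 0.0286 to 0.377.

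Every one of the 12 Shc3 probe sets had a higher mutant mean, from 0.20 to 0.84, with a median of 0.62, and all were above the dim limit on average. The groups of 6 did not overlap, all higher, against 2.39% of all probe sets. Probe set 10409227 read 10.15, 9.63, 9.68 and 9.46 in wild-type and 10.48, 10.36, 10.46 and 10.31 in the mutants, a difference of 0.67 (SE 0.15). Probe set 10409229 read 10.46, 10.02, 10.07 and 9.70 against 10.75, 10.64, 10.77 and 10.54, a difference of 0.61 (SE 0.16). Wild-type replicate 1 was the wild-type array nearest to the mutants in both. It had the highest wild-type value in 10 of the 12 probe sets and lay above the wild-type mean in all 12.

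The range within the gene is shown by a further pair of Shc3 probe sets. Probe set 10409223 read 8.88, 8.42, 8.71 and 7.62 in wild-type and 9.41, 9.37, 9.07 and 9.13 in the mutants, the highest difference of the gene at 0.84 (SE 0.26). Wild-type replicate 4 was the low array there. Probe set 10409224 read 9.46, 9.34, 9.69 and 9.19 against 9.67, 9.55, 9.74 and 9.54, and its groups overlapped at a difference of 0.20 (SE 0.12). Cic-L-null replicates 1 to 4 exceeded all wild-type arrays in 11, 8, 10 and 9 of the 12 Shc3 probe sets, and in 12, 10, 6 and 9 of the 14 Shc4 probe sets. The counts were 3, 2, 1 and 2 of 10 for Shc1 and 3, 3, 2 and 1 of 15 for Shc2. The share over all probe sets was not computed for single arrays, so these counts are a description only.

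**Figure D2:**
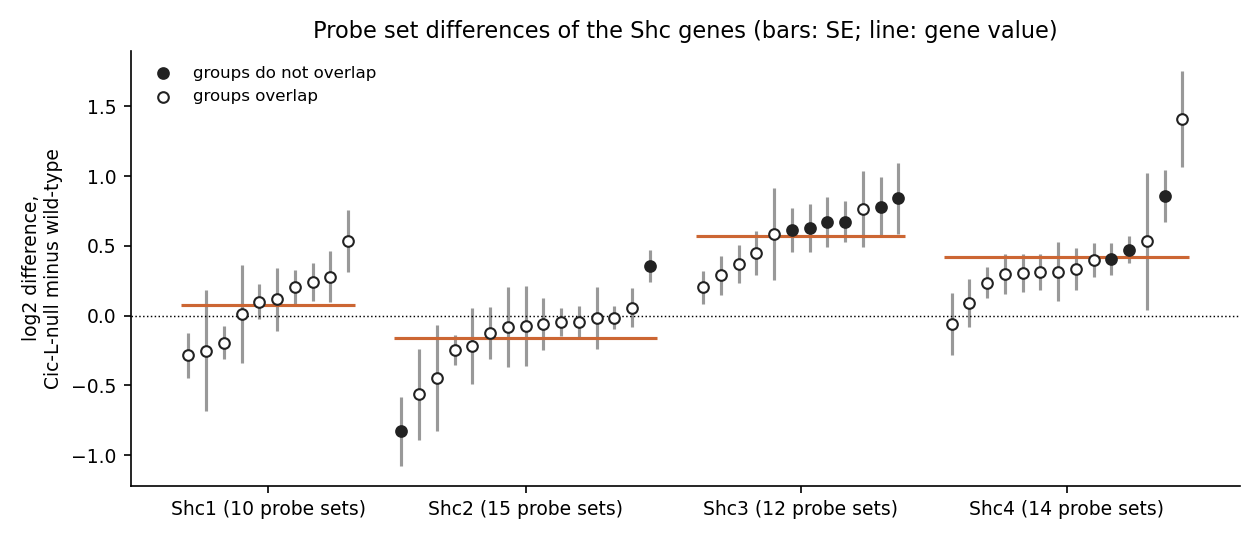
Log2 difference (Cic-L-null minus wild-type, vertical axis) of each of the 51 probe sets, sorted within its gene, with SE bars; filled points have groups that do not overlap, and the orange line is the difference of the gene value. All 12 Shc3 points and 13 of 14 Shc4 points lie above 0, and the Shc1 and Shc2 points fall on both sides.

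Shc1, the founding member, whose transcripts encode several isoforms of different length, had overlapping groups. Its gene values were 7.28, 6.94, 7.03 and 7.19 in wild-type and 7.31, 7.13, 7.18 and 7.12 in Cic-L-null replicates 1 to 4. The difference was 0.076 log2 units (SE 0.082, limma adjusted p = 0.859), with a 95% interval from -0.11 to 0.26, so a fold change from 0.929 to 1.20. It was 0.16 with dim probe sets left out and 0.13 with the median of the probe sets, and did not pass in either. Of its 10 probe sets, 7 were above 0 and 3 below, with a median of 0.11, and none had groups apart. Probe set 10493529 differed most, at 0.53 (SE 0.22), and read 7.07, 6.78, 6.36 and 7.01 in wild-type against 7.54, 7.72, 6.87 and 7.22 in the mutants. Only the third mutant overlapped the wild-type arrays there. Of the 10 probe sets, 8 were above the dim limit on average.

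Shc2, also known as ShcB, Sck or Sli, was the member with a lower mutant mean. Its gene values were 7.65, 7.56, 7.63 and 7.57 in wild-type and 7.57, 7.43, 7.48 and 7.29 in Cic-L-null replicates 1 to 4. Only Cic-L-null replicate 1 reached into the wild-type range. The difference was -0.16 (SE 0.068, limma adjusted p = 0.512), with a 95% interval from -0.31 to -0.0065. The exact two-sided permutation test gave p = 0.0571. With the median of the probe sets the difference was -0.28, and it did not pass with limma. With quantile normalisation of the gene values the exact permutation p was 0.0286 for a difference of -0.15.

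The Shc2 probe sets did not move together in size. Of the 15, 13 were below 0 and 2 above, with a median of -0.076, closer to 0 than the gene value because a few probe sets differed far more than the rest. Probe set 10370589 read 6.99, 6.85, 7.23 and 7.31 in wild-type and 6.60, 5.54, 6.66 and 6.27 in the mutants, a difference of -0.83 (SE 0.25) without overlap, where 1.91% of all probe sets were lower without overlap. Probe set 10370593 read 8.54, 8.64, 8.63 and 8.19 against 8.84, 8.83, 8.95 and 8.82, a difference of 0.35 (SE 0.12) in the other direction, also without overlap. Shc2 thus had 1 of 15 probe sets with groups apart in each direction, against 2.39% of all probe sets higher and 1.91% lower. Neither passed with limma. Probe set 10370590 leaned on part of its arrays, with mutants at 8.45, 6.81, 7.02 and 7.60 against wild-type values from 7.86 to 8.19.

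Tested one by one among all probe sets with limma, none of the 51 passed, and 1 of 241576 did (0.000414%). The smallest adjusted p of the family was 0.401, for 10487151 of Shc4. At an unadjusted p under 0.05 there were 9 of 12 for Shc3, 6 of 14 for Shc4, 3 of 15 for Shc2 and 1 of 10 for Shc1, against 6.8% of all probe sets. Probe sets of a gene read the same RNA of the same animals and are not replicates.

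Whether the members differed from each other was tested on the log2 value of a member minus another within each array, by exact two-sided permutation, with adjustment over the 6 pairs. Shc3 minus Shc1 averaged 1.94 ± 0.25 (SD, n = 4) in wild-type arrays, against 2.43 ± 0.038 (SD, n = 4) in mutant arrays, a shift of 0.50 (SE 0.13). Shc3 minus Shc2 shifted by 0.73 (SE 0.14), Shc4 minus Shc1 by 0.35 (SE 0.075), Shc4 minus Shc2 by 0.58 (SE 0.092) and Shc1 minus Shc2 by 0.23 (SE 0.072). These 5 shifts had groups fully apart, and each had an exact p of 0.0286, the smallest the design can give, and an adjusted p of 0.0343. Shc3 minus Shc4 shifted by 0.15 (SE 0.12, exact permutation p = 0.286), so these data do not order the responses of Shc3 and Shc4. None of the 5 passed where gene values were medians over probe sets (adjusted p from 0.0857 to 0.206) or with dim probe sets left out (0.0571 to 0.0686). In both settings Shc3 minus Shc2 and Shc4 minus Shc2 kept an unadjusted exact permutation p of 0.0286.

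Leaving out arrays also changed these pair calls. Without any one Cic-L-null array none of the 5 passed, at adjusted p of 0.0857 or 0.103 by exact permutation of 7 arrays. In each of these cases Shc4 minus Shc2 kept an unadjusted exact permutation p of 0.0286, at shifts from 0.51 to 0.65. The adjustment over the 6 pairs depends on the other pairs too. A pair at the smallest exact p can therefore miss the threshold, and a lost call does not show a lost shift. Shc4 minus Shc1 also missed the threshold without wild-type replicate 1, 3 or 4 (exact permutation adjusted p from 0.0571 to 0.0686). Shc3 minus Shc4 passed only without wild-type replicate 1, at a shift of 0.26 (exact permutation adjusted p = 0.0343).

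**Figure D3:**
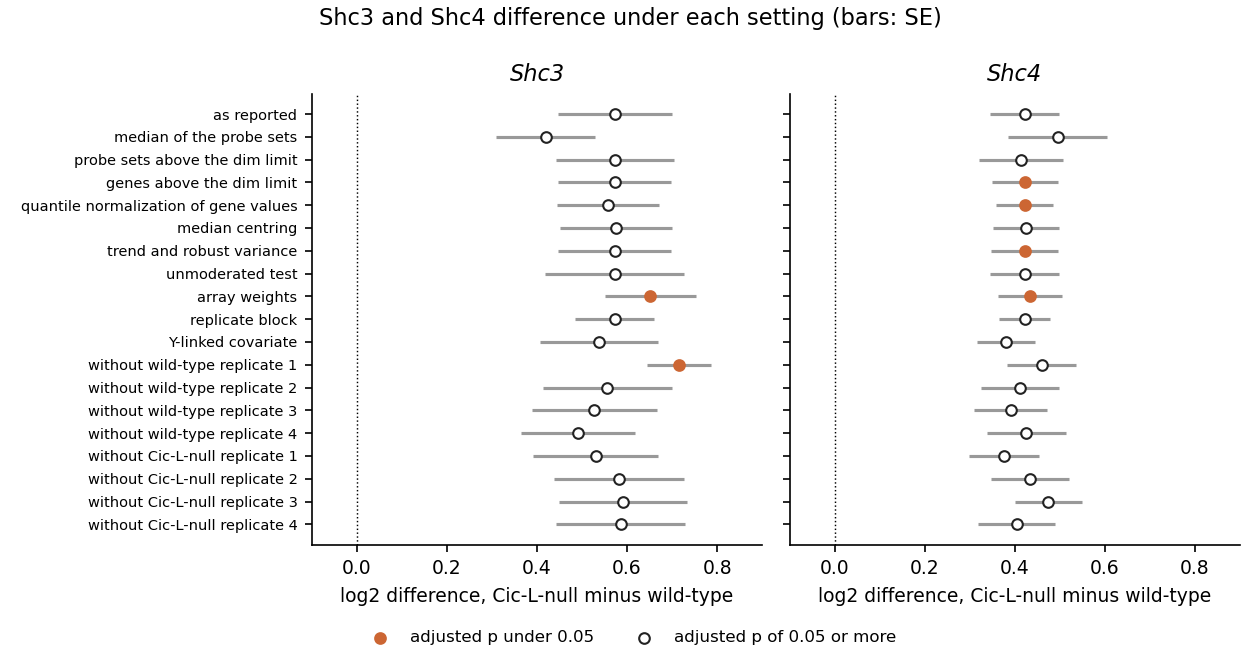
Log2 difference (Cic-L-null minus wild-type, horizontal axis) of Shc3 and Shc4 as reported and under each of 18 alternatives, with SE bars; orange points have a limma adjusted p under 0.05. Every point lies above 0, and 2 of the Shc3 and 4 of the Shc4 alternatives pass the threshold.

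The rest of the pathway was read from lists of receptors, ligands, partners and effectors, other adaptors, and proteins that bind or restrain Shc. Of 120 listed genes 111 were measured, and 0 passed over all genes in either direction with limma, while 18 had an unadjusted p under 0.05 and 8 had groups apart, against 9.26% and 5.94% of all genes. Of the 111, 58 were above 0, as were 47.0% of all genes, and their median difference was 0.0019, where the median of all genes was -0.0071. With a trended and robust variance 1 pathway gene passed, the receptor gene Igf1r (0.42, adjusted p = 0.0197).

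Among the receptors 13 of 24 were above 0, with a median of 0.026. Igf1r, the receptor of insulin-like growth factors, read 8.90, 8.83, 8.89 and 8.79 in wild-type and 9.36, 9.11, 9.17 and 9.48 in Cic-L-null replicates 1 to 4, without overlap. Its difference of 0.42 (SE 0.084, limma adjusted p = 0.0964) was about that of Shc4. Kdr, a receptor of vascular endothelial growth factor, differed by 0.39 (SE 0.13) with overlapping groups. Musk, a kinase receptor of muscle that Shc4 is known to bind, was dim in both groups at 5.67 and 5.64.

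Among the ligands 8 of 22 were above 0, with a median of -0.028. The growth factor genes Mdk and Igf2 were lower in every mutant, at -0.24 (SE 0.065) and -0.22 (SE 0.068), and neither passed (limma adjusted p = 0.247 and 0.302). Igf2 also stands on the list of meningeal fibroblast markers, of which 6 of 10 were below 0.

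Transcripts of the proteins that Shc acts through had mostly small differences. Partners and effectors were above 0 in 15 of 24, with a median of 0.020. Grb2, which docks on phosphorylated Shc, differed by -0.097 (SE 0.068), and the exchange factor genes Sos1 and Sos2 by 0.068 (SE 0.063) and 0.081 (SE 0.066). These 3 were named for their role after their values were seen, and none passed. The caveolin gene Cav1 differed by 0.17 (SE 0.078). Ap2a1, a subunit of the clathrin adaptor, differed by -0.32 (SE 0.15) without overlap, and that mean leaned on Cic-L-null replicate 1 at 9.42, where the other mutants lay between 10.12 and 10.23.

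Other adaptors were above 0 in 15 of 27, with a median of 0.021. Sh2b2 differed by 0.28 (SE 0.098) and the insulin receptor substrate gene Irs2 by 0.20 (SE 0.073), the latter read by 1 probe set. Of the genes that bind or restrain Shc, 7 of 14 were above 0, with a median of -0.0090. Nf1, which encodes neurofibromin, a protein that switches Ras off, differed by 0.27 (SE 0.092) without overlap, and Shcbp1, an Shc-binding protein of dividing cells, was dim and differed by -0.067 (SE 0.069).

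**Figure D4:**
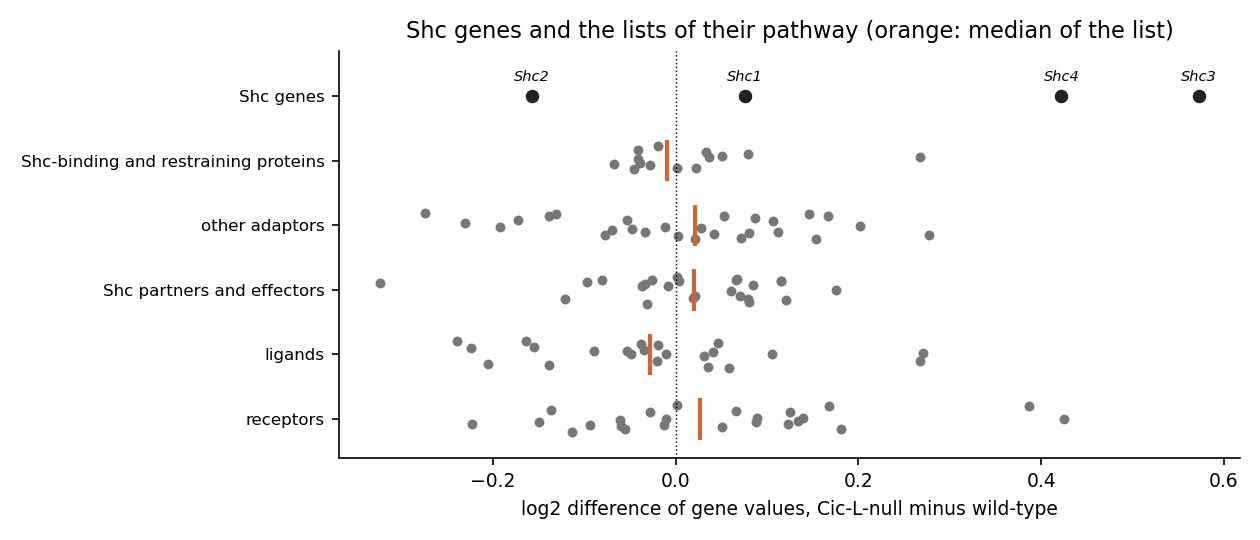
Log2 difference of gene values (Cic-L-null minus wild-type, horizontal axis) of the 4 Shc genes (black) and of the measured genes of the 5 pathway lists (grey, spread vertically for sight only), with the median of each list in orange. Shc3 lies at 0.57 and Shc4 at 0.42, and the list medians lie between -0.028 and 0.026.

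The genes whose values followed each member most closely over the 8 arrays were taken by Pearson r, as a description over arrays that share animals and normalisation. Shc4 was followed by Dcx (r = 0.994), Grk5 (r = 0.987) and Slc25a27 (r = 0.977). Dcx encodes the microtubule protein doublecortin of young neurons and Grk5 a receptor kinase. Both were higher in the mutants without passing, Dcx by 0.52 (SE 0.089, limma adjusted p = 0.0644) and Grk5 by 0.60 (SE 0.097, adjusted p = 0.0579). After the group means were subtracted, the 3 values of r were 0.964, 0.925 and 0.896. High values are partly fixed by this choice from 20352 genes.

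Shc3 was followed by Hsd17b12 (r = 0.989), Sin3b (r = 0.985) and Zbtb49 (r = 0.984), with 0.964, 0.949 and 0.949 within groups. Hsd17b12, an enzyme of fatty acid elongation, differed by 0.40 (SE 0.092, limma adjusted p = 0.159). Shc1 was followed by Fsd1, Wbp2 and Ccdc85a, with r from 0.952 to 0.959, and Shc2 by Slc48a1, Msmo1 and Vmn1r227, with r from 0.957 to 0.980. Vmn1r227, a receptor gene of the vomeronasal organ, was read by 1 dim probe set at 3.88 and 3.72. Between the members themselves, Shc3 and Shc4 had r = 0.897 over the 8 arrays and 0.597 within the groups. That value within the groups was not particular to this pair. Shc1 had 0.587 with Shc2, 0.573 with Shc3 and 0.595 with Shc4 within the groups. Shc2 had 0.426 with Shc3 and 0.141 with Shc4.

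Markers of the cell types that the tissue holds were set beside these values. Of 12 granule cell markers 7 were above 0, with a median of 0.057, and their mean log2 level ran from 11.3 to 11.4 in both groups. Purkinje cell markers were above 0 in 8 of 11, with a median of 0.030 and levels from 10.3 to 10.5 and from 10.4 to 10.5. Bergmann glia and astrocyte markers were below 0 in 9 of 11, with a median of -0.14 and levels from 10.27 to 10.40 in wild-type and from 10.10 to 10.17 in Cic-L-null arrays. Mature oligodendrocyte markers were below 0 in 11 of 11, with a median of -0.12 and levels from 9.90 to 10.02 and from 9.77 to 9.88. Endothelial markers were below 0 in 8 of 9, with a median of -0.13 and levels from 8.32 to 8.51 and from 8.14 to 8.42.

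Oligodendrocyte precursor markers were above 0 in 7 of 10, with a median of 0.051, and microglia markers in 5 of 9, with a median of 0.019. Meningeal fibroblast markers had a median of -0.090, and choroid plexus markers were below 0 in 8 of 10, with a median of -0.16 and mutant levels from 7.61 to 8.74. Brainstem and forebrain markers were below 0 in 6 of 8, with a median of -0.091, and 5 of the 8 were dim in both groups. One gene of all these lists passed over all genes, Fabp7 of the glial list, which fell. The part of cell composition in the values of Shc3 and Shc4 was not tested. All 4 Shc genes lie on chromosomes other than that of Cic, by their names in GRCm38.p6.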

How the data were processed

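The submitters' processing notes name RMA and the Affymetrix Power Tools, with which the authors made the deposited log2 values per probe set. RMA corrects background, equalises the distributions of the arrays and summarises probes, so a change shared by most genes would not be seen. For versions and genome build, the notes used here give nothing. Of 241576 probe sets, 212097 carried 1 symbol in the platform's old annotation, 4475 several and 25004 none. Symbols were updated through GRCm38.p6 names, and the mean per symbol gave 20352 gene values. The median log2 value of an array was 7.82 to 7.88. An array has no read depth, and 4 animals per group limit the precision.

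Groups came from the sample titles. Gene values and, separately, all probe sets were fitted with R 4.3.3 and limma 3.58.1 (lmFit, then eBayes, group as the only term), two-sided, with Benjamini-Hochberg adjustment and a threshold of 0.05. The fit was tested on simulated data. Single values used exact permutation over the 70 assignments of 4 against 4. By rule, the genes named beside the family were Cic, markers to check the tissue, any called gene or else the 2 smallest p of each pathway list, and the 3 closest to each member by Pearson r. Musk, Grb2, Sos1, Sos2, Eid1 and Fabp7 were named after their values were seen. The members and lists were chosen with earlier results of these data known. Alternatives covered the combination of probe sets, dim limits, normalisation, variance model, array weights, a replicate block, Y-linked genes as a covariate and each array left out. List members without a gene value are not analysed here.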

Additional observations from a re-analysis of the deposited data

Results flagged for a closer look

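In 110 groups of 4 arrays, those of the 4 gene values and the 51 probe sets, 6 had an array far from the other 3 relative to the range of the group. Chance gives about 1 in 20 such groups, so 6 of 110 is near that rate. All 6 were in the Cic-L-null group. For the gene value of Shc3, Cic-L-null replicate 1 stood high at 9.74, where the others lay from 9.56 to 9.59. For Shc3 probe set 10409234, Cic-L-null replicate 4 stood low at 9.35, where the others lay from 9.52 to 9.55. In Shc2, probe set 10370588 had Cic-L-null replicate 2 high at 8.03 (others 7.31 to 7.42), and 10370593 had Cic-L-null replicate 3 high at 8.95 (others 8.82 to 8.84). Probe set 10370600 had Cic-L-null replicate 1 high at 7.53 (others 6.91 to 6.98). In Shc1, probe set 10493520 had Cic-L-null replicate 4 low at 5.86 (others 6.998 to 7.13). Wild-type replicate 1 of Shc3 did not reach this limit, although it stood 0.48 above the next array in a range of 0.67.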

How the results depend on the processing

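The differences of all 4 genes kept their sign in all 18 alternatives, which groups without overlap fix in advance for Shc3 and Shc4 when an array is left out. Leaving out each array gave 0.020 to 0.13 for Shc1, -0.20 to -0.11 for Shc2, 0.49 to 0.71 for Shc3 and 0.38 to 0.47 for Shc4. Shc3 passed with array weights (0.65) and Shc4 with genes above the dim limit (0.42), quantile normalisation (0.42), a trended and robust variance (0.42) and array weights (0.43). The count of pathway genes that passed went from 0 to 1 with the trended variance. The replicate numbers do not pair the animals by any label, and same-numbered arrays correlated in their deviations from 0.00033 to 0.22, with 2 of 4 wild-type arrays closest to their own number. With the replicate block Shc3 stayed at 0.57 (limma adjusted p = 0.0955) and Shc4 at 0.42 (adjusted p = 0.0819), and the count of genes passing went from 28 to 0. With the median of the probe sets, Shc3 minus Shc4 turned to -0.075, Shc3 minus Shc1 was 0.29, Shc3 minus Shc2 0.70, Shc4 minus Shc1 0.37, Shc4 minus Shc2 0.78 and Shc1 minus Shc2 0.41, and none passed. With dim probe sets left out these were 0.41, 0.73, 0.25, 0.57 and 0.32 for the 5 pairs that had passed, and again none did. Without single arrays, which was added after seeing the data, the shifts ran from 0.065 to 0.26 for Shc3 minus Shc4, 0.39 to 0.58 for Shc3 minus Shc1, 0.66 to 0.85 for Shc3 minus Shc2, 0.31 to 0.40 for Shc4 minus Shc1, 0.51 to 0.65 for Shc4 minus Shc2 and 0.19 to 0.27 for Shc1 minus Shc2. The exact test of Shc2 alone passed with quantile normalisation (-0.15) and without Cic-L-null replicate 1 (-0.20), and that of Shc3 missed it without any one Cic-L-null array (0.53 to 0.59, exact p = 0.0571). In those cases the Shc3 groups still did not overlap. Another split of the arrays into groups of these unequal sizes gave a difference at least as large. The cause of the other moves was not tested. Of the probe sets, 8 of Shc1, 13 of Shc2, 12 of Shc3 and 13 of Shc4 lay above the dim limit in their mean over all 8 arrays. The Shc4 count holds 10487148, which passed through its mutant values alone (means 5.73 and 7.14), as do the Shc4 results with dim probe sets left out.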
